A study of Mus musculus with 6 samples.

Results

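The genes described here are 10 members of the BCL-2 family, the proteins that set whether a cell keeps its mitochondria intact or dies by apoptosis. They were taken by symbol from a table of 55335 mouse gene identifiers. The rule names the genes and sets no threshold on their values, but the list was drawn up with earlier results of these data known. All 10 were found, each under 1 identifier, and all 10 entered the test, which took in genes averaging 1 FPKM or more (11395 genes in all). FPKM is the number of sequenced fragments per kilobase of transcript and scaled to the number of mapped fragments, so that levels of genes of different length can be set side by side.

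RNA was read from primary microglia of newborn C57BL/6 mice after 24 h of co-culture with neutrophils, which had been isolated magnetically from spinal cord lesions 3 days after spinal cord injury (SCI). In 3 libraries these neutrophils came from Cd177 wild-type mice (WT) and in 3 from Cd177 knockout mice (KO), while the microglia themselves were labelled wild-type in all 6. After co-culture the microglia were sorted by FACS as cells without Ly6G, a neutrophil surface protein. The comparison asks how microglial transcripts differ when the neutrophils beside them lack CD177, and the microglia had no arm without neutrophils. The sources used here do not say whether libraries of 1 group came from separate cultures or from how many injured mice the neutrophils were pooled, so the p-values measure only the spread between these libraries, which may be technical.

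In the intrinsic pathway of apoptosis, the effectors BAX and BAK open the outer mitochondrial membrane and let cytochrome c out. The anti-apoptotic members BCL-2, BCL-XL (gene Bcl2l1), MCL-1 and A1 (genes Bcl2a1a, Bcl2a1b and Bcl2a1d) bind the effectors and hold them back. BH3-only members such as BIM (gene Bcl2l11) and BID sense stress and bind the anti-apoptotic proteins or the effectors. In macrophages and other myeloid cells MCL-1 is a short-lived survival protein and A1 is known as a gene that NF-kB switches on during inflammation.

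The mouse carries several copies of A1, and 3 of the 10 members are such copies. Bcl2a1b (chr9:89199209-89207827, plus strand), Bcl2a1d (chr9:88723285-88731914, minus strand) and Bcl2a1a (chr9:88956900-88962419, plus strand) lie within 484543 bases of chromosome 9 (GRCm38, GENCODE M21). Each has 2 exons and a coding sequence of 516 bases, and 12 positions of that sequence differ among the copies. The first 120 coding bases hold 7 of these 12 positions, and are shown as an example of how little tells the copies apart. Capitals mark the positions that are not the same in all 3 copies.
Bcl2a1b: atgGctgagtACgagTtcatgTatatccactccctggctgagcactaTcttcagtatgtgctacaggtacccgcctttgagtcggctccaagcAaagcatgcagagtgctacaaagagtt
Bcl2a1d: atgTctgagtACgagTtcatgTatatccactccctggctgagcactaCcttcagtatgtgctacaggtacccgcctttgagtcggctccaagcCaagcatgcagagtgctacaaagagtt
Bcl2a1a: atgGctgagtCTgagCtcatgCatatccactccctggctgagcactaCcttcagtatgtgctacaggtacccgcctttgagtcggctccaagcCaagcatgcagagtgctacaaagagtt

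Over the whole coding sequence, identity was 98.8% between Bcl2a1b and Bcl2a1d, 98.6% between Bcl2a1d and Bcl2a1a, and 97.9% between Bcl2a1b and Bcl2a1a. Bcl2a1d alone differed at 1 of the 12 positions, Bcl2a1b alone at 5 and Bcl2a1a alone at 6. Of all stretches of 100 bases in the annotated transcript, 54.7% of those of Bcl2a1d, 43.5% of those of Bcl2a1a and 31.1% of those of Bcl2a1b were found unchanged in another copy. How reads that match several copies were counted is not given in the sources used here. The 3 values are therefore uncertain one by one, and their sum is given beside them.

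The stretches just before the annotated starts of these copies are alike too, and are shown as a description of the sequence. Their part in the changes of the copies was not tested. Each line holds 180 bases upstream of every annotated start, from RefSeq sequence of GRCm38.p6, read along the strand of the gene, and capitals mark the letters GAGGAAGT, a form of the site of the myeloid factor PU.1.
Bcl2a1b, chr9:89199029-89199208, plus strand: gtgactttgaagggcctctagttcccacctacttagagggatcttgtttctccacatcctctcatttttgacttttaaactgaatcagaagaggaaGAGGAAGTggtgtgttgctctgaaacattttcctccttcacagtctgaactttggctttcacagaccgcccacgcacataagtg
Bcl2a1d, chr9:88731915-88732094, minus strand: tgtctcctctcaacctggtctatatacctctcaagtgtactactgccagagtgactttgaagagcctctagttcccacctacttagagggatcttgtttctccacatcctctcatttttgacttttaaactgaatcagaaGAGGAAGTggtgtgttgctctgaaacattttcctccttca
Bcl2a1a, chr9:88956720-88956899, plus strand: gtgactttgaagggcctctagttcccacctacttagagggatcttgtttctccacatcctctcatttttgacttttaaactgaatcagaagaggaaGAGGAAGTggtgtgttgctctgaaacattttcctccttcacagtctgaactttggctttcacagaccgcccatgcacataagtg

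The stretches of Bcl2a1b and Bcl2a1a were identical at 99.4% of 180 bases. That of Bcl2a1d matched each of the other two at 129 of 136 aligned positions (94.9%). Bases beside GAGGAAGT that the other two hold and Bcl2a1d lacks were counted here as not matching. GAGGAAGT began 84 bases before the annotated start of Bcl2a1b and Bcl2a1a and 40 bases before that of Bcl2a1d. The bases after it were the same in all 3 until the Bcl2a1d stretch ended. The distances therefore differ by where each start was annotated. Motifs were searched on both strands in promoters running from 250 bases before to 50 bases after a RefSeq start, of which the 10 members had 13 and all genes 32851. GAGGAAGT was present for Bcl2a1a, Bcl2a1b, Bcl2a1d and Bak1, and in 3.2% of all promoters. TGANTCA, the AP-1 motif, was present for the 3 A1 copies and in 7.81% of all promoters, and did not share bases with GAGGAAGT in the stretches shown. GTAAACA, a FOXO motif, was present for Bcl2l11 (3.65% of all promoters), and the NF-kB consensus for Bcl2l1 (4.51%). A match of letters is a description of the sequence and not of binding.

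After co-culture with KO instead of WT neutrophils, the A1 copies Bcl2a1d and Bcl2a1b, Mcl1 and the BH3-only gene Bcl2l11 were lower in microglia, and the BH3-only gene Bid was higher. Transcripts of the effectors Bax and Bak1 were not called in either direction, nor were Bcl2, Bcl2l1 and Bcl2a1a. A call here is a Benjamini-Hochberg adjusted p under 0.05 over all 11395 genes in limma, on log2(FPKM + 1). Of the 10 members 5 were called, against 43.3% of all genes tested, so the number of calls was near the background. In direction, 4 members were lower (18.8% of all genes were called lower) and 1 was higher (24.5% of all genes). The 4 include Bcl2a1b and Bcl2a1d, near-identical copies that may share reads, so their calls may not be separate results. The median log2 change of the 10 members was -0.37, against 0.02 over all genes tested. This median rests in part on Bcl2a1a, whose change was too imprecise to give a direction. In bulk RNA, fewer cells of a type and less RNA per cell cannot be told apart.

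**Figure D1:**
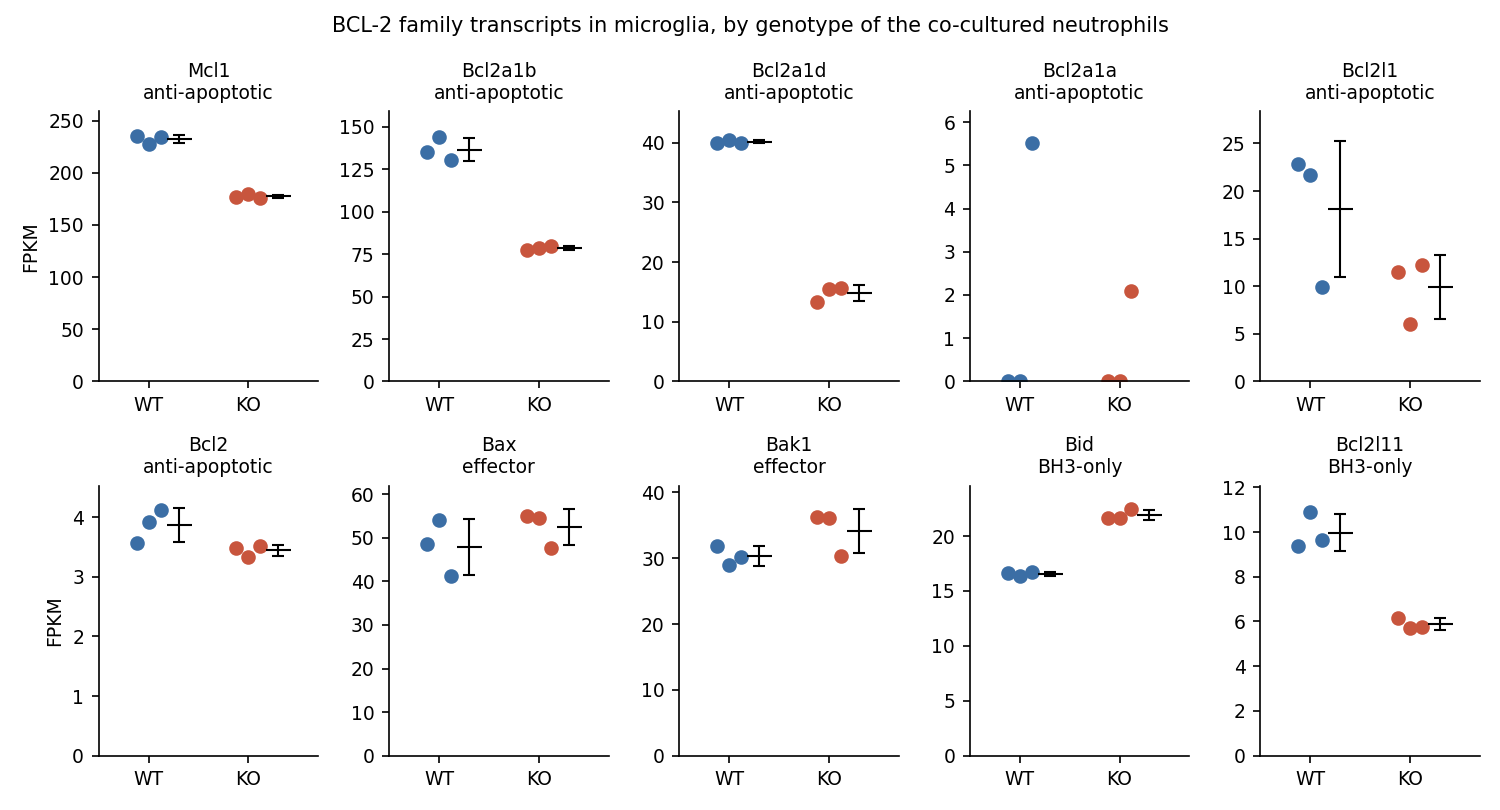
FPKM of the 10 BCL-2 family members in each of the 6 libraries (points; vertical axes in FPKM from 0, one scale per gene), with WT neutrophils in blue and KO neutrophils in red, and the mean with SD of 3 libraries in black except for Bcl2a1a. The KO points lie below all WT points for Mcl1, Bcl2a1b, Bcl2a1d, Bcl2 and Bcl2l11 and above all WT points for Bid, while WT replicate 3 of Bcl2l1, at 9.88 FPKM, lies among the KO values.

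Among the anti-apoptotic members Mcl1 (chr3:95658788-95663176, plus strand) was the most abundant, ranking 196 of 11395 by mean FPKM. It had 234.9, 227.9 and 234.6 FPKM with WT neutrophils and 176.9, 179.1 and 175.8 FPKM with KO neutrophils. All 3 KO libraries lay below the lowest WT library, and each group was tight. The WT mean was 232.4 ± 3.97 and the KO mean 177.3 ± 1.67 FPKM (SD, n = 3 each), so that the KO level was 76.3% of the WT level. On the log2(FPKM + 1) scale Mcl1 fell by 0.39 (SE 0.02, 95% interval -0.44 to -0.34, limma adjusted p = 2.3e-05). MCL-1 is also controlled at the level of the protein, which was not measured here.

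Bcl2a1b was next in abundance, ranking 366. It had 135.1, 144.0 and 130.8 FPKM in the WT libraries and 77.56, 78.79 and 79.62 FPKM in the KO libraries. The KO libraries stood together well below the WT libraries, with a WT mean of 136.7 ± 6.70 and a KO mean of 78.66 ± 1.04 FPKM (SD, n = 3 each). It fell by 0.79 on that scale (SE 0.04, 95% interval -0.88 to -0.70, limma adjusted p = 1.6e-05), and the KO level was 57.6% of the WT level. Its exons overlap those of Gm29094 on the same strand, a gene with 3.333 to 5.614 FPKM in the WT and 1.248 to 1.901 FPKM in the KO libraries, so reads could be split between the pair.

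Bcl2a1d changed more than any other member. With WT neutrophils it stood at 40.03, 40.53 and 40.0 FPKM, and with KO neutrophils at 13.37, 15.43 and 15.71 FPKM. No KO library came near the WT range, and the KO mean of 14.84 ± 1.28 FPKM was 36.9% of the WT mean of 40.19 ± 0.30 FPKM (SD, n = 3 each). The log2 change was -1.38 (SE 0.06, 95% interval -1.53 to -1.24, limma adjusted p = 1.1e-05), and 1.09% of the genes tested had a lower value. Bcl2a1d was the 1 member of 10 that passed the threshold stated for the study (a change over 2-fold and p under 0.05 before adjustment), which 2.57% of all genes tested passed in this fit.

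The remaining copy, Bcl2a1a, was listed at 0 in WT replicates 1 and 2 and in KO replicates 1 and 2. WT replicate 3 had 5.508 FPKM and KO replicate 3 had 2.088 FPKM. A listed 0 can be a failed estimate where copies are so alike, and the mean passed the filter through these last libraries alone. Its log2 change of -0.36 (SE 0.84, 95% interval -2.39 to 1.67, limma adjusted p = 0.755) is too imprecise to give a direction, and it turned to 0.54 (adjusted p = 0.467) without WT replicate 3. The closely related Bcl2a1c had at most 0.1999 FPKM in any library and was not tested.

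Summed over the 3 copies, A1 transcripts came to 175.2, 184.5 and 176.4 FPKM with WT neutrophils and to 90.93, 94.22 and 97.42 FPKM with KO neutrophils. The sum depends less than the single values on how reads were shared among the copies, and its groups stayed far apart. The KO sum was 52.7% of the WT sum (94.19 ± 3.25 against 178.7 ± 5.10 FPKM, SD, n = 3 each). Bcl2a1d made up 21.97% to 22.85% of it in the WT libraries and 14.7% to 16.38% in the KO libraries, and Bcl2a1b held 74.2% to 78.03% and 81.73% to 85.3%. These sums and shares are descriptions, without a test.

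**Figure D2:**
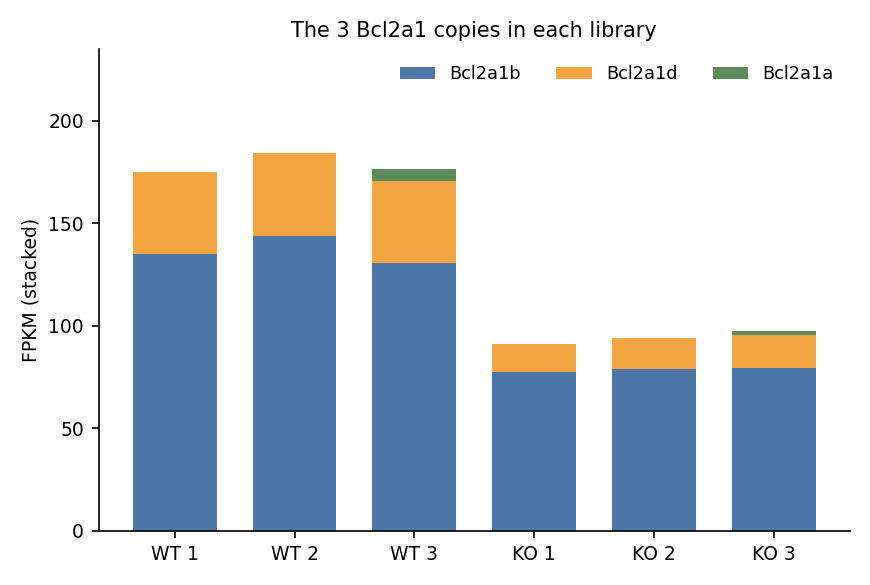
FPKM of Bcl2a1b, Bcl2a1d and Bcl2a1a stacked for each of the 3 WT and 3 KO libraries (vertical axis in FPKM from 0). The stacks reach 175.2 to 184.5 FPKM with WT neutrophils and 90.93 to 97.42 FPKM with KO neutrophils, and Bcl2a1a shows only in replicate 3 of each group.

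By a rule set for the member with the largest change, the 3 tested genes closest to Bcl2a1d over the 6 libraries were Osm, Marcksl1 and Nfkb2. Their Euclidean distances on the log2(FPKM + 1) scale were 0.302, 0.32 and 0.408. Osm, which encodes the cytokine oncostatin M, had 37.47 to 41.05 FPKM in the WT libraries and 14.47 to 16.0 FPKM in the KO libraries. Marcksl1, a MARCKS-like protein, had 41.94 to 43.82 and 15.51 to 16.36 FPKM. Nfkb2, an NF-kB subunit gene, had 34.01 to 35.53 and 14.05 to 14.13 FPKM. This likeness is one of level and direction and is given as a description.

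Bcl2l1, the gene of BCL-XL (chr2:152780668-152831728, minus strand), varied most between libraries among the members that were above 0 in all of them. It had 22.8, 21.7 and 9.88 FPKM in the WT libraries and 11.51, 6.016 and 12.2 FPKM in the KO libraries. WT replicate 3 lay among the KO values and KO replicate 2 lay below the rest, so the groups overlapped. The coefficient of variation was 39.5% in the WT and 34.2% in the KO group, against medians of 3.96% and 3.79% over genes with at least 5 FPKM. The log2 change was -0.78 (SE 0.37, 95% interval -1.68 to 0.12, limma adjusted p = 0.139). Without WT replicate 3 it was -1.15 and passed the threshold (adjusted p = 0.0302), and without KO replicate 2 or any other library it did not. The annotation gives Bcl2l1 9 transcripts, with coding ones of 472 to 2568 bases, and a value per kilobase depends on the length assumed, which is not given in the sources used here.

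Bcl2 itself (chr1:106538178-106714274, minus strand) was low in these cells, ranking 8426 of 11395. Its FPKM was 3.564, 3.912 and 4.126 with WT and 3.478, 3.34 and 3.516 with KO neutrophils. The groups were apart, but WT replicate 1 and KO replicate 3 differed by less than the spread within the WT group. The log2 change was -0.13 (SE 0.06, 95% interval -0.27 to 0.02, limma adjusted p = 0.128), so Bcl2 was not called. Bcl2 was thus among 6 members whose groups did not overlap, with Mcl1, Bcl2a1b, Bcl2a1d, Bcl2l11 and Bid, while 55.8% of all genes tested had groups without overlap.

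The anti-apoptotic transcripts together came to 436.4, 438.0 and 425.0 FPKM in the WT libraries and 282.8, 282.7 and 288.9 FPKM in the KO libraries, and the KO mean was 65.8% of the WT mean. Mcl1 and the A1 copies made up 93.96% to 96.7% of this sum in every library. Within it the share of A1 was 40.14% to 42.13% in the WT and 32.15% to 33.72% in the KO libraries, and that of Mcl1 was 52.02% to 55.21% and 60.85% to 63.36%. Of the 6 anti-apoptotic members, 3 were called lower and 0 higher in limma (0 higher at an unadjusted p under 0.05 too), against 18.8% of all genes tested called lower and 24.5% called higher, and their median log2 change was -0.585. The 3 include Bcl2a1b and Bcl2a1d, whose calls may not be separate results, since these copies may share reads.

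The effectors did not pass the test. Bax (chr7:45461697-45466898, minus strand) had 48.48, 54.04 and 41.12 FPKM in the WT libraries and 55.03, 54.64 and 47.69 FPKM in the KO libraries. The groups overlapped, and the log2 change was 0.13 (SE 0.11, 95% interval -0.12 to 0.39, limma adjusted p = 0.343). With 1 library left out the log2 change of Bax ranged from 0.03 without WT replicate 3, its lowest library, to 0.22 without WT replicate 2, and the threshold was not passed in any of these fits. Bak1 (chr17:27019810-27029009, minus strand) had 31.9, 28.97 and 30.18 FPKM in the WT libraries and 36.21, 36.05 and 30.34 FPKM in the KO libraries. KO replicate 3 of Bak1 lay within the WT range and the other KO libraries above it. Its log2 change was 0.16 (SE 0.08, 95% interval -0.02 to 0.35, limma adjusted p = 0.126), and without KO replicate 3 it was 0.25 and passed the threshold (adjusted p = 0.0124). Both intervals include 0, that of Bax with room on either side, so missing the threshold does not show that the effectors were at 1 level in both groups. Bax shares exons with Gm45808, listed at 0 in all libraries but KO replicate 3 (0.2796 FPKM), and Bak1 overlaps Ggnbp1 on the opposite strand, which had at most 0.4286 FPKM.

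Set against each other, the summed anti-apoptotic level was 5.429, 5.277 and 5.96 times the summed Bax and Bak1 level with WT neutrophils. With KO neutrophils it was 3.1, 3.117 and 3.703 times that level. The ratio was lower in each KO library than in any WT library, and its KO mean was 59.5% of the WT mean. This is a ratio of transcripts per length and has no test.

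The BH3-only members went in opposite directions. Bcl2l11, the gene of BIM (chr2:128126038-128162547, plus strand), had 9.364, 10.91 and 9.661 FPKM in the WT libraries and 6.173, 5.704 and 5.745 FPKM in the KO libraries. Every KO library was below every WT library, at a KO mean of 5.874 ± 0.26 and a WT mean of 9.979 ± 0.82 FPKM (SD, n = 3 each). Its log2 change was -0.67 (SE 0.06, 95% interval -0.83 to -0.52, limma adjusted p = 3.6e-04). BIM is a pro-apoptotic protein, so that this fall stands beside those of Mcl1 and A1, which are anti-apoptotic. The Bcl2l11 level was 3.987% to 4.789% of the Mcl1 level in the WT libraries and 3.185% to 3.489% in the KO libraries.

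Bid (chr6:120891930-120916853, minus strand), whose protein is cut by caspase-8 and then links death receptors to mitochondria, was the member that rose. It had 16.62, 16.35 and 16.73 FPKM in the WT libraries and 21.67, 21.63 and 22.46 FPKM in the KO libraries. The groups were narrow and apart, at a WT mean of 16.57 ± 0.19 and a KO mean of 21.92 ± 0.47 FPKM (SD, n = 3 each), and the KO level was 132% of the WT level. The log2 change was 0.38 (SE 0.03, 95% interval 0.31 to 0.46, limma adjusted p = 1.4e-04). Exons of Bid overlap those of Bcl2l13 on the opposite strand, and the use of strand in counting is not given. Bcl2l13 itself had 7.113 to 7.691 FPKM in the WT libraries and 7.366 to 7.918 FPKM in the KO libraries (log2 change 0.02, limma adjusted p = 0.764).

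**Figure D3:**
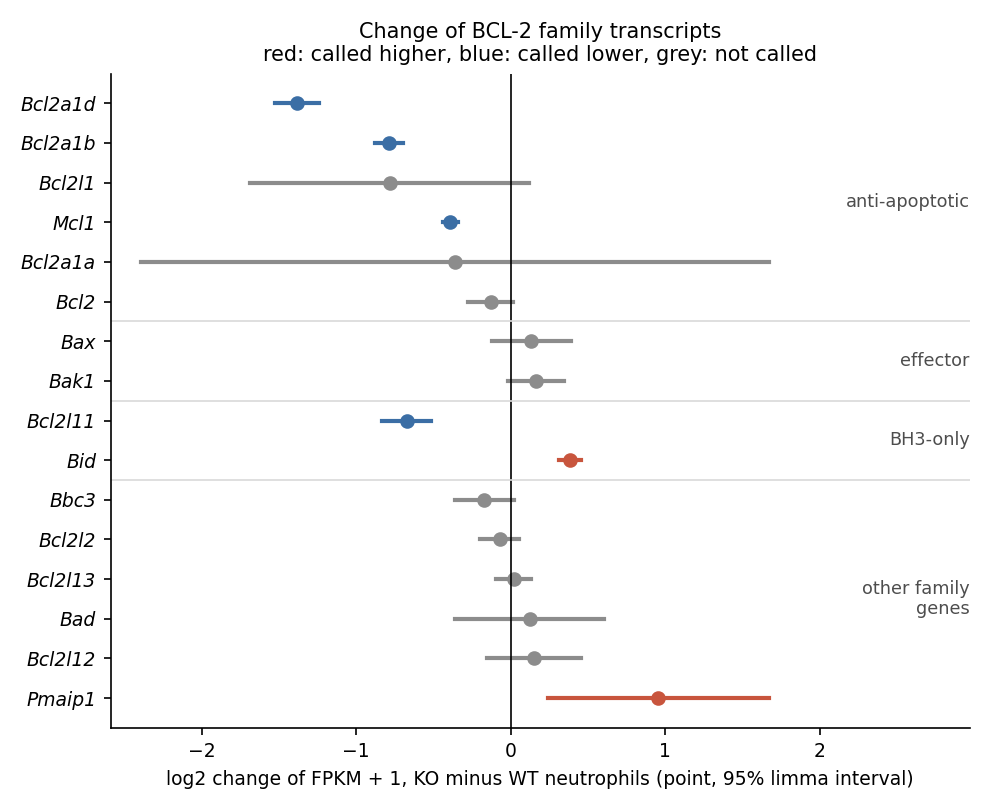
Log2 change of FPKM + 1, KO minus WT neutrophils (horizontal axis; point and 95% limma interval), for the 10 members grouped by role and the 6 other tested genes of the family. Bcl2a1d (-1.38), Bcl2a1b (-0.79), Mcl1 (-0.39) and Bcl2l11 (-0.67) lie below 0, Bid (0.38) and Pmaip1 (0.96) above 0, and the wide intervals are those of Bcl2a1a, Bcl2l1 and Pmaip1.

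Two-sided exact permutation tests of the difference between means gave p = 0.1 for Bcl2, Bcl2a1b, Bcl2a1d, Mcl1, Bcl2l11 and Bid. This is the smallest p that 3 libraries against 3 allow. For Bak1, Bcl2l1, Bax and Bcl2a1a the exact permutation p was 0.2, 0.3, 0.4 and 1.0. The 5 calls (Bcl2a1b, Bcl2a1d, Mcl1, Bcl2l11 and Bid) kept their direction and their side of the threshold in each of the 16 alternative fits, 6 of which left out 1 library.

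**Figure D4:**
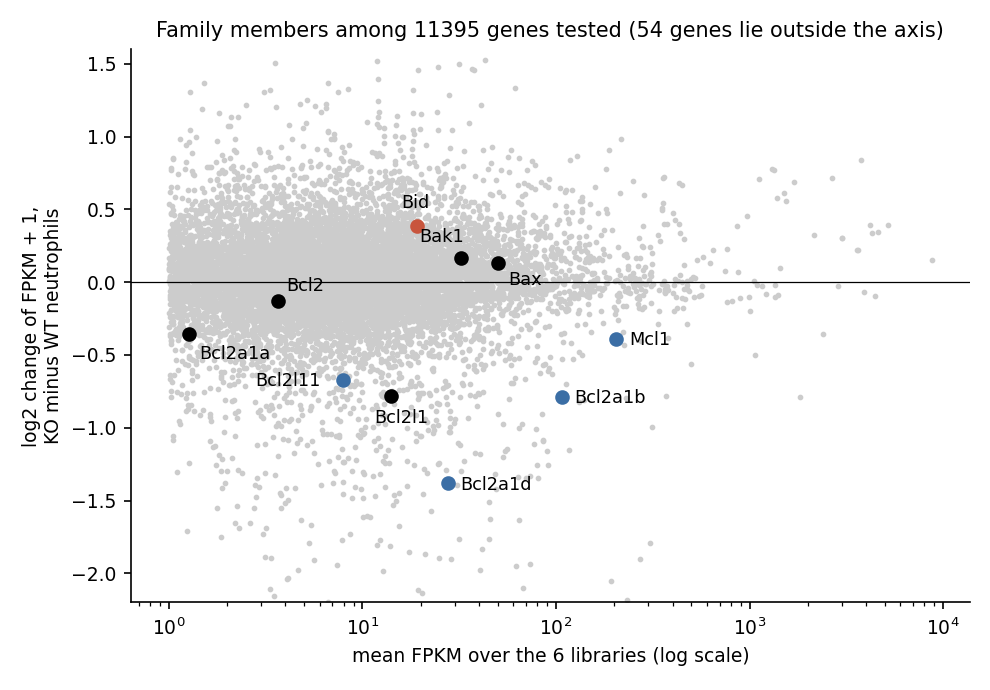
Mean FPKM over the 6 libraries (horizontal, log scale) and log2 change of FPKM + 1, KO minus WT neutrophils (vertical), for 11395 genes in grey, of which 54 lie outside the vertical axis, and the 10 members in blue (called lower), red (called higher) or black (not called). Mcl1 and Bcl2a1b stand at the abundant end below 0, and Bcl2a1d, at -1.38, is the lowest member.

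The rest of the family reached at most 21.83 FPKM in any library. Of 14 further members, 6 were tested, with a median log2 change of 0.07, and 1 of them was called, against 43.3% of all genes tested. This was Pmaip1, the gene of the BH3-only protein NOXA, which binds MCL-1 and A1. Pmaip1 had 8.539, 7.902 and 7.82 FPKM in the WT libraries and 21.62, 21.83 and 9.576 FPKM in the KO libraries. KO replicates 1 and 2 were far above the WT libraries and KO replicate 3 was just above them. On the log2 scale this rise was 0.96 (SE 0.30, limma adjusted p = 0.0408). The call was lost with no filter on low values (adjusted p = 0.104), without a variance trend (0.0501), and without any 1 of the libraries other than KO replicate 3 (0.0839 to 0.114), while without KO replicate 3 the log2 change was 1.32 (adjusted p = 5.7e-05).

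The other tested family genes were not called with all 6 libraries. Bcl2l2, the anti-apoptotic BCL-W, had 10.55 to 10.79 FPKM in the WT libraries and 9.328 to 10.65 FPKM in the KO libraries (log2 change -0.07, limma adjusted p = 0.317). Bbc3, the BH3-only PUMA, had 7.024 to 8.778 and 6.78 to 7.184 FPKM (log2 change -0.17, limma adjusted p = 0.129), and without WT replicate 3, its lowest WT library, it was called lower (log2 change -0.25, adjusted p = 0.014). Bad, another BH3-only gene, had 3.063 to 4.861 and 3.223 to 5.608 FPKM (log2 change 0.12, limma adjusted p = 0.651). Bcl2l12 had 1.52 to 2.426 and 2.139 to 2.488 FPKM (log2 change 0.15, limma adjusted p = 0.369). In each of these the groups overlapped.

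Downstream of the effectors, the list of apoptosome and mitochondrial factors had 9 tested genes of 10, of which 6 were called higher and 0 lower (median log2 change 0.26). Over all genes tested 24.5% were called higher and 18.8% lower, with a median of 0.02, and the lists that follow have the same background. At an unadjusted p under 0.05 in limma the count lower was also 0. Endog, a mitochondrial nuclease, had 4.369, 4.239 and 3.787 FPKM in the WT libraries and 8.497, 7.228 and 8.278 FPKM in the KO libraries (log2 change 0.81, SE 0.07, limma adjusted p = 3.2e-04). Aifm1, the apoptosis-inducing factor that also serves the respiratory chain, rose by 0.32 (limma adjusted p = 5.1e-04). Htra2, a protease that IAP proteins bind, rose by 0.31 (limma adjusted p = 0.00965). Beside this, genes encoded by mitochondrial DNA held 11.1% to 11.3% of all FPKM in the WT and 14.3% to 14.6% in the KO libraries, and the part of this shift in the list was not tested.

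Of the 8 genes of the IAP family, inhibitors of apoptosis that include caspase inhibitors, all were tested, 3 lower and 3 higher (median log2 change -0.08). Birc3, cIAP2, a ubiquitin ligase of TNF receptor signalling, had 15.35, 13.81 and 15.08 FPKM in the WT libraries and 5.244, 4.412 and 5.01 FPKM in the KO libraries. This was a fall of like size to that of Bcl2a1d (log2 change -1.42, SE 0.07, limma adjusted p = 1.8e-05), and the difference between the pair was not tested. Naip2, an inflammasome sensor that carries IAP domains, fell by 0.47 (limma adjusted p = 9.7e-04). Birc5, survivin, which also acts in cell division, rose by 0.36 (limma adjusted p = 0.00309), and Birc6, a large IAP with ubiquitin-conjugating activity, rose by 0.22 (limma adjusted p = 0.00768).

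The death receptor and initiator caspase list had 9 tested genes of 11, with 2 higher and 1 lower (median log2 change 0.10). Cflar, the gene of c-FLIP, which holds back caspase-8, had 19.32, 19.14 and 19.99 FPKM in the WT libraries and 12.63, 11.83 and 11.76 FPKM in the KO libraries. It fell by 0.65 (SE 0.04, limma adjusted p = 4.7e-05), with all KO libraries below all WT libraries. Tnfrsf1a, TNF receptor 1, rose by 0.20 (limma adjusted p = 0.0152), a call lost without KO replicate 2 (0.0513). Pidd1, a scaffold for caspase-2, had 1.316, 0.8421 and 0.8493 FPKM in the WT libraries and 1.824, 1.803 and 1.51 FPKM in the KO libraries (log2 change 0.44, limma adjusted p = 0.0209), a call lost without WT replicate 2 or 3, KO replicate 1 or 2, or the filter on low values (highest adjusted p = 0.0647). The list had 2 genes called lower without WT replicate 2, and also with no filter on low values.

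In the p53 axis, 4 of 7 tested genes (of 8) were lower and 0 higher (median log2 change -0.15), against 18.8% lower and 24.5% higher over all genes tested, and 0 were higher in limma at an unadjusted p under 0.05. Mdm2, the ubiquitin ligase of p53 and itself a p53 target, had 25.26, 24.73 and 25.16 FPKM in the WT libraries and 13.23, 12.94 and 12.29 FPKM in the KO libraries (log2 change -0.91, SE 0.04, limma adjusted p = 7.0e-06). Cdkn1a, the cell cycle inhibitor p21, fell by 0.42 (limma adjusted p = 1.4e-04). Sesn2, a stress-induced sestrin, had a log2 change of -0.15 (limma adjusted p = 0.026), and Mdm4, a relative of Mdm2, one of -0.20 (limma adjusted p = 0.0378). The count of genes called lower went from 4 to 2 without WT replicate 2 or 3 or KO replicate 1 or 3, where Mdm2 and Cdkn1a remained and Sesn2 and Mdm4 did not. The call of Mdm4 was also lost without WT replicate 1 and with no filter on low values (adjusted p = 0.0841).

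Among 6 genes of MCL-1 turnover, the ligases and a deubiquitinase that set how long the protein lasts, 5 were tested and 1 was called, Cdc20, an activator of the anaphase-promoting complex. It had 46.35, 48.8 and 46.35 FPKM in the WT libraries and 55.62, 54.46 and 55.23 FPKM in the KO libraries (log2 change 0.22, SE 0.03, limma adjusted p = 0.00132). The median of the list was -0.06. Of 7 membrane partners of the family, all tested, 3 were higher and 1 lower (median -0.01), while on the TPM scale 2 were higher and 2 lower, with Vdac3 called lower (adjusted p = 0.0376). Bnip3, a BH3-like protein of mitophagy and hypoxia, fell by 0.70, from 43.31 to 46.95 FPKM across the WT libraries to 26.16 to 28.78 FPKM across the KO libraries (limma adjusted p = 1.1e-04). The channel gene Vdac1 rose by 0.22 (limma adjusted p = 6.4e-04), the endoplasmic reticulum protein gene Bcap31 by 0.20 (limma adjusted p = 6.6e-04) and the BAK partner Vdac2 by 0.22 (limma adjusted p = 0.0334). The call of Vdac2 was lost on the TPM scale, with no filter on low values and without WT replicate 2 or any 1 KO library (highest adjusted p = 0.0835).

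**Figure D5:**
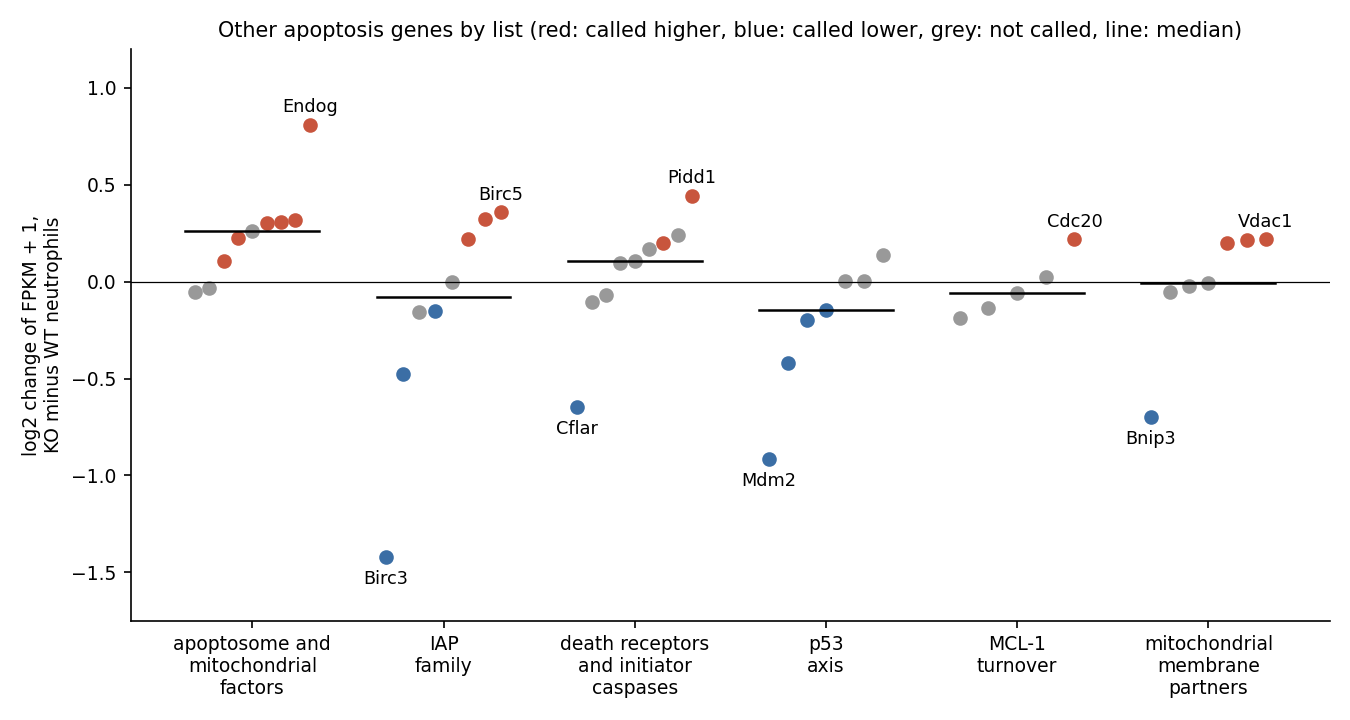
Log2 change of FPKM + 1, KO minus WT neutrophils (vertical), of every tested gene in 6 lists of other apoptosis genes (points in red, blue or grey for called higher, called lower or not called; lines are list medians). Birc3 (-1.42), Mdm2 (-0.91), Bnip3 (-0.70) and Cflar (-0.65) are the lowest points of their lists, and Endog (0.81) is the highest point of all.

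The cells were checked against markers. Of 14 microglia and macrophage markers 10 had a mean of at least 1 FPKM, with summed levels of 1266 to 1314 FPKM in the WT and 1389 to 1427 FPKM in the KO libraries, while C1qa was listed at 0 in every library and P2ry12, Tmem119 and Aif1 were under 1 FPKM. Single markers moved both ways with the groups, 5 called higher and 3 lower of the 10 tested. Adgre1, the gene of F4/80, fell by 1.34 on the log2 scale (limma adjusted p = 1.7e-06), while the receptor gene Trem2 rose by 1.15 (limma adjusted p = 2.3e-05), its adaptor Tyrobp by 0.48 (limma adjusted p = 7.2e-04) and the lysosomal gene Cd68 by 0.40 (limma adjusted p = 5.9e-05). The part of these shifts in the family's changes was not tested. Of 14 neutrophil markers none reached a mean of 1 FPKM, and 8 were listed at 0 in every library, Ly6g, S100a9, Mpo and Elane among them. A listed 0 need not mean absence, as C1qa was listed so too, and the cells were sorted as cells without Ly6G. The summed level of the 14 neutrophil markers was 1.824 to 2.021 FPKM in the WT and 0.7692 to 1.19 FPKM in the KO libraries, so it moved with the groups, beside 175.8 to 234.9 FPKM of Mcl1 and 90.93 to 184.5 FPKM of the summed A1 copies over the same libraries. Its part in the family's changes was not tested. The 5 astrocyte, 5 oligodendrocyte and 5 lymphocyte markers, each list taken by itself, summed to at most 0.3792 FPKM in any library. Cd177 had 0.1126 to 0.477 FPKM in the WT and 0.02173 to 0.1094 FPKM in the KO libraries, and as a gene of the neutrophils it checks the labels only weakly in sorted microglia. Total FPKM was 314085 to 315632 in the WT and 323588 to 326868 in the KO libraries. After rescaling to a common sum, 2183 genes were higher and 2659 lower, against 2789 higher and 2141 lower on the deposited scale, and the 5 member calls were the same. Reads per gene could not be recovered from the table, so the depth behind each value is unknown and no counting interval is given.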

How the data were processed

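RNA-seq of 6 libraries of sorted mouse microglia was analysed, 3 per genotype of the co-cultured neutrophils, grouped by sample title. The authors deposited 1 table of FPKM values, with 1 column per library. The submitters' processing notes name fastp 0.17.1, HISAT2 2.1.0, DESeq2 1.18.1 and R 3.4.3. The program that made the FPKM, the genome build and the annotation are not given in the sources used here, and the labels and the paper name different library kits and sequencers. Symbols, positions and transcripts came from GENCODE M21 (GRCm38) by Ensembl identifier (55154 of 55335 matched, 99.67%), and promoters from RefSeq. FPKM depends on the transcript length and on how reads of copies were shared, and with few abundant genes shifting, all other values shift.

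The test was limma 3.58.1 (R 4.3.3; lmFit, then eBayes with its trend option) on log2(FPKM + 1), a scale that understates changes of low genes, for genes averaging 1 FPKM or more, with no covariate and Benjamini-Hochberg adjustment over 11395 genes. Exact two-sided permutation tests of means were added for the members. The limma step was tested on simulated data. Whole fragments were sought from the steps between low values, but 17.2% to 20.8% came out whole (within 0.05 of a fragment, 10.0% by chance), so no reads were recovered and no count test was run. Alternative fits used a pseudocount of 0.1, no filter, a filter at 5 FPKM, 4 scalings (quantile normalization, median centring, TPM scale, the same without mitochondrial genes), array weights, no variance trend, a replicate block and each library left out. All 10 members were named, as was every tested gene among 14 further family members. Of each other list, up to 4 called genes with the smallest p were named, except 1 gene that is not reported here. The members and lists were chosen with earlier results of these data known.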

Additional observations from a re-analysis of the deposited data

How the results depend on the processing

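Of 158 comparisons of a member's log2 change with an alternative, 155 kept their direction and their side of the threshold, 2 passed it newly and 1 reversed. The exceptions were all fits with 1 library left out, where the log2 change of Bcl2l1 ranged from -1.15 to -0.49 (limma adjusted p = 0.0302 without WT replicate 3), that of Bak1 from 0.12 to 0.25 (adjusted p = 0.0124 without KO replicate 3) and that of Bcl2a1a from -0.90 to 0.54, with 0.54 reached without WT replicate 3, which held its highest value. In these fits the number of members called higher ranged from 1 to 2 (2 without KO replicate 3) and the number called lower from 4 to 5 (5 without WT replicate 3). By the study's threshold of more than 2-fold and an unadjusted p under 0.05, 0 members were higher and 1 was lower, since the other called members changed by less than 2-fold. A minimum of 5 FPKM left out Bcl2 and Bcl2a1a. Of 256 comparisons of list counts, 234 stayed within 1.5 times the count and 22 moved further. The count test (edgeR) was not run because reads could not be recovered.

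No shared deviation was seen between same-numbered libraries, with correlations of -0.075, -0.052 and -0.005. Such values cannot show that these libraries had no culture or day in common, which the sources used here do not give. With the replicate block 2373 genes were higher and 1839 lower over the whole table, against 2789 and 2141, and the calls of the 10 members were the same. Depth is unknown, so the counting error of low values, such as those of Bcl2a1a and of the untested family genes, cannot be given.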

Other observations

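Factors and receptors known to control BCL-2 family genes formed a further list of 14, all of them tested, with 4 called higher and 7 lower (median log2 change -0.14), against 24.5% higher and 18.8% lower and a median of 0.02 over all genes tested. The symbol Ddit3, counted among the 7, has 2 gene identifiers, of which only the first was used. Nfkb1, an NF-kB subunit gene, had 18.02, 19.44 and 18.67 FPKM in the WT libraries and 7.607, 7.179 and 7.196 FPKM in the KO libraries (log2 change -1.24, SE 0.04, limma adjusted p = 4.6e-06). Rel, the gene of c-Rel, another subunit known to drive A1, fell by 0.50 (limma adjusted p = 1.6e-04), and Stat3, a mediator of cytokine signals, fell by 0.38 (limma adjusted p = 9.6e-04). Csf2rb, the shared beta chain of the GM-CSF, IL-3 and IL-5 receptors, had 12.95, 13.71 and 12.08 FPKM in the WT libraries and 20.57, 20.05 and 24.82 FPKM in the KO libraries (log2 change 0.71, SE 0.09, limma adjusted p = 0.0011). The count of genes called lower went from 7 to 4 without WT replicate 1 or KO replicate 2, and the 4 genes named here kept their calls in every fit.

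Of the 8 family genes below 1 FPKM on average, Bmf and Bik were chosen for mention after their values were seen, because their groups did not overlap. Bmf, a BH3-only gene, had 0.4748, 0.3374 and 0.3895 FPKM in the WT libraries and 1.117, 0.8708 and 0.8756 FPKM in the KO libraries. Bik, another BH3-only gene, had 0.345, 0.6334 and 0.1338 FPKM in the WT libraries and 0.03241, 0.133 and 0.0 FPKM in the KO libraries. With no filter on low values the limma adjusted p was 0.0109 for Bmf and 0.154 for Bik. These p-values come from the values by which the genes were chosen, so they lend the choice no support. Among genes averaging 1 FPKM or more, 55.8% had groups without overlap.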
